A study of Mus musculus with 8 samples.

Results

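The genes of cholesterol synthesis, of its control by the transcription factor SREBP2 and of cholesterol transport and efflux were followed in cultured mouse pancreatic islets. The set was given as a list of gene symbols, and all 29 were found, each as 1 row, among the 27534 genes of the deposited table. High glucose islets were kept in 20 mM glucose and low glucose islets in 7.5 mM glucose, each for 72 h, with 4 libraries per group. Both groups were islets of C57BL/6J mice in RPMI medium with fetal bovine serum and HEPES. The study as a whole asks how the endoplasmic reticulum (ER) stress sensor IRE1α limits the Golgi while β cells adapt to demand, and this comparison shows which transcripts differ after prolonged high glucose. The sources used here do not give the sex and age of the mice, or whether the libraries came from separate mice, so the p-values measure the spread between these libraries only.

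Cells build cholesterol from acetyl-CoA through mevalonate, isoprenoids, squalene and lanosterol, and they also take it up in lipoproteins. SREBP2, made by Srebf2, is held in the ER membrane with its escort SCAP by the INSIG proteins while ER sterol is plentiful, and when sterol falls it is cut in the Golgi and switches on nearly all genes of the pathway. Oxysterols made from excess cholesterol activate the LXR receptors, which raise the efflux transporters ABCA1 and ABCG1 and the ubiquitin ligase IDOL, made by Mylip. In β cells, cholesterol is needed for the membrane of insulin granules, and loss of ABCA1 in mice impairs insulin secretion.

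Of the 29 genes, 6 rose and 2 fell in high glucose, and the changes were all under 1.5-fold. Sqle, Ebp, Cyp51, Dhcr7, Pmvk and Sc5d rose, of which 5 act between squalene and cholesterol. Srebf2 itself fell 1.47-fold and Mylip fell 1.39-fold. All 29 genes passed the filter on low counts, and the edgeR quasi-likelihood test with Benjamini-Hochberg adjustment over 15442 genes and a threshold of 0.05 was used throughout. Of all genes tested, 13.1% were called higher, 11.9% lower and 25.0% either way, so that 8 calls among 29 genes is a share near that of the whole transcriptome. The median log2 fold change was -0.07 over the 29 genes and -0.01 over all genes tested. With library size alone as scaling, 37.8% of all called genes were higher, against 52.5% with TMM scaling, and 5 of the 29 genes were called higher and 4 lower. Groups did not overlap for 8 of the 29 genes, 5 higher and 3 lower, and for 27.3% of all genes tested. With the replicate number as a block, 7 of the 29 rose and 5 fell, while 18.9% of all genes tested were called higher, 18.5% lower and 37.4% either way.

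**Figure D1:**
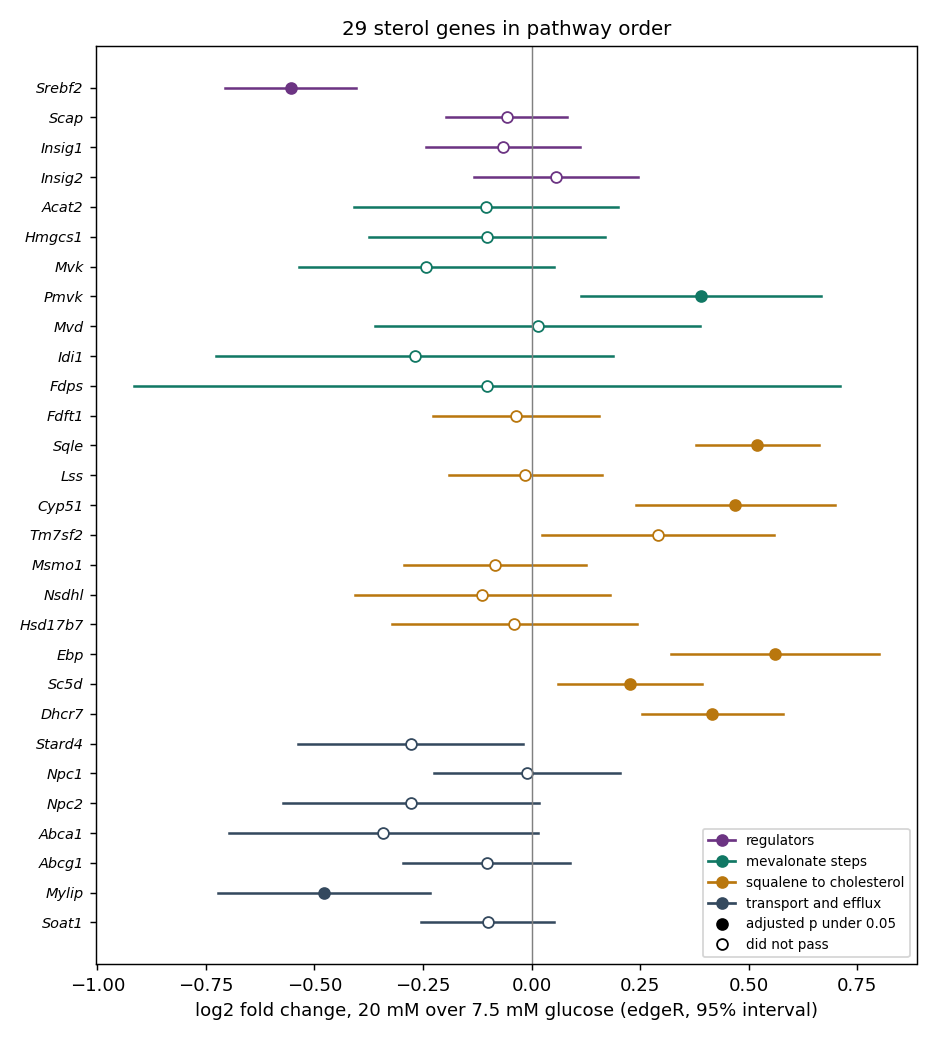
Log2 fold change of each of the 29 genes, 20 mM over 7.5 mM glucose (horizontal axis), with its 95% interval from edgeR, in pathway order from top to bottom and coloured by role. Filled points passed the threshold of 0.05 on adjusted p: of the synthesis enzymes 6 lie to the right of 0 and none to the left, whereas Srebf2 and Mylip lie to the left.

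The control layer of the pathway moved at Srebf2. Its transcript (ENSMUSG00000022463, GRCm38 chromosome 15, 82147181 to 82205379) stood at 118, 108, 104 and 102 CPM (the read count per library size, scaled by TMM) in high glucose libraries 1 to 4, against 157, 156, 161 and 159.6 CPM in low glucose libraries 1 to 4. Every high glucose library lay below every low glucose library. The log2 fold change was -0.55 ± 0.07 (SE, n = 4 per group, here and below) with adjusted p = 0.000247 in edgeR, and the ratio was below 1 in 4 of 4 same-numbered pairs. Srebf2 passed in each of the 15 other settings and left-out libraries run, with adjusted p of at most 0.00153.

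The other 3 genes of the SREBP2 switch did not pass. Insig1, an ER retention factor and itself a well-known SREBP target, had 89.2, 78.7, 78.2 and 73.6 CPM in high glucose libraries, against 86.5, 90.0, 80.7 and 77.3 CPM in low glucose libraries. The groups overlapped, with a log2 change of -0.07 and a 95% interval of -0.24 to 0.11 (adjusted p = 0.597 in edgeR). Insig2, the related retention factor, had a log2 change of 0.06 (interval -0.13 to 0.25), and Scap, the escort, one of -0.06 (interval -0.20 to 0.08). Of the 50-base stretches of Scap, 9.96% recur exactly in transcripts of 5830462I19Rik, so its level is uncertain. The 3 intervals exclude a fall as large as that estimated for Srebf2. DESeq2 and limma-voom likewise called no gene of these 4 higher, and without adjustment none had an edgeR p under 0.05 in that direction.

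Promoter windows are shown for Srebf2 and for Hmgcs1, a classical SREBP target that did not pass, beside 3 enzymes that rose, Cyp51, Ebp and Sc5d. Each window holds 250 bases before and 50 after a RefSeq transcription start (build GRCm38.p6), 5′ to 3′ on the gene's strand. Capitals mark matches to TCACNCCAC, a sterol regulatory element, to its first 8 letters TCACNCCA, and to CCAAT, the NF-Y site, on both strands, so that ATTGG is a CCAAT on the other strand.
Srebf2, chr15:82147019-82147318, plus strand: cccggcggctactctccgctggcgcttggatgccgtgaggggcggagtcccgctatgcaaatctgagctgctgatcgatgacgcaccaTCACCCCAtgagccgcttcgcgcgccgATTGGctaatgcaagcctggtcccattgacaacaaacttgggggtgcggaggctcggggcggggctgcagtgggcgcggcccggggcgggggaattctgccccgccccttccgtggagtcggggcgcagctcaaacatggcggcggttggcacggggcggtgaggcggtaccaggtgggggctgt
Hmgcs1, chr13:119690101-119690400, plus strand: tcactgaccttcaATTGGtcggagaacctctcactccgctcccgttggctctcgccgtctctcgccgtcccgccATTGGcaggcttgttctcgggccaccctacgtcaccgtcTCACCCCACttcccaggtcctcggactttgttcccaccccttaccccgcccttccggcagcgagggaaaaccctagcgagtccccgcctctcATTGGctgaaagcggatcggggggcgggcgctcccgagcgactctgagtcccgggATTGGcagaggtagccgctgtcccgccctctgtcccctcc
Cyp51, chr5:4104648-4104947, minus strand: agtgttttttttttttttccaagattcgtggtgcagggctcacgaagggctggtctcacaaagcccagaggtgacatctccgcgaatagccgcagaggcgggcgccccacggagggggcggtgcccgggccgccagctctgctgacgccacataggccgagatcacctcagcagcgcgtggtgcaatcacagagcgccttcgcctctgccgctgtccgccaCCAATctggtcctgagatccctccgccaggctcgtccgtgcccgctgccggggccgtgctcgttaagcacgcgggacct
Ebp, chrX:8193463-8193762, minus strand: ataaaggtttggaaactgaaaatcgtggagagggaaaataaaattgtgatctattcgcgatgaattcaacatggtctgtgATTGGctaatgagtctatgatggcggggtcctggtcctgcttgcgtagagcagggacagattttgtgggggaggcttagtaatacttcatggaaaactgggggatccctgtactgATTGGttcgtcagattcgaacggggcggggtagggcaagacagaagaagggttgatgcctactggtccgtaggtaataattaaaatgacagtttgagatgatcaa
Sc5d, chr9:42264251-42264550, minus strand: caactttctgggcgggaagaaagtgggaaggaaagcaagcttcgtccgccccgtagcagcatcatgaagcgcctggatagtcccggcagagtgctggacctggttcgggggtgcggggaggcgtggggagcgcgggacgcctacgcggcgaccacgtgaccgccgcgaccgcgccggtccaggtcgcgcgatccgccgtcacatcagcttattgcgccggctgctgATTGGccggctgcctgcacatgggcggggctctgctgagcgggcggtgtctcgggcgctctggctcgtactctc
The full element TCACNCCAC was found in 1 window, that of Hmgcs1, where its first base lies 137 bases before the start. The table of promoters matched 23 of the 29 genes with 29 windows, and 1.24% of all 32851 windows hold that motif. The 8-letter form, chosen after the windows had been seen and contained in the longer motif, was found for 3 genes, Srebf2, Hmgcs1 and Msmo1, and in 4.36% of all windows. In Srebf2 its first base lies 162 bases before the start, and an inverted CCAAT follows with its first base 135 bases before the start. CCAAT was present in 20 of the 29 windows of these genes and in 37.4% of all windows. An exact direct repeat for LXR was in none of the 29 and in 0.0152% of all windows. None of the 5 matched genes that rose holds either form of the sterol element in these windows, which says only that those letters are not there. Other forms of the element were not searched. Sqle, which also rose, had no window and was not searched.

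The first mevalonate steps, up to mevalonate kinase, did not pass. Hmgcs1, which makes HMG-CoA, had 48.6, 44.0, 42.2 and 33.7 CPM in high glucose libraries, against 42.1, 54.0, 44.2 and 40.7 CPM in low glucose libraries. The groups overlapped, with a log2 change of -0.10 ± 0.12 (SE), a 95% interval of -0.37 to 0.17 and adjusted p = 0.586 in edgeR. Of its 50-base stretches 11.6% recur exactly in transcripts of other genes, mainly Gm48342, so its level is uncertain too. Acat2, the cytosolic thiolase that opens the pathway, had a log2 change of -0.11, and 39.1% of its 50-base stretches also occur exactly in transcripts of other genes, mainly Acat3, so its level is uncertain. Mvk, mevalonate kinase, changed by -0.24 ± 0.13 on the log2 scale (SE), which did not pass (adjusted p = 0.218 in edgeR). Its high glucose libraries, at 8.67 to 9.10 CPM, all lay below its low glucose libraries, at 9.33 to 13.4 CPM.

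Pmvk, which adds the next phosphate to mevalonate, was the 1 mevalonate gene of 7 that rose. It had 30.5, 34.2, 31.1 and 28.3 CPM in high glucose libraries, against 21.0, 30.4, 23.0 and 20.5 CPM in low glucose libraries. Low glucose library 2 stood among the high glucose values, and the other 3 low glucose libraries below all of them. The increase was 1.31-fold, higher in 4 of 4 same-numbered pairs, with adjusted p = 0.0432 in edgeR. It passed with all libraries and without low glucose replicate 2, but not when any other single library was left out (adjusted p 0.0539 to 0.122).

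The remaining mevalonate genes, Mvd, Idi1 and Fdps, did not pass. Mvd, the decarboxylase that yields isopentenyl diphosphate, had a log2 change of 0.01 (95% interval -0.36 to 0.39). Idi1, the isomerase after it, had 10.3, 5.72, 6.74 and 5.54 CPM in high glucose libraries, against 8.0, 10.4, 7.76 and 7.92 CPM in low glucose libraries. High glucose library 1 stood with the low glucose libraries, and without it Idi1 was lower in high glucose, with a log2 change of -0.51 and adjusted p = 0.0481 in edgeR. Fdps, farnesyl diphosphate synthase, was counted at only 10 to 27 reads in high glucose libraries and 15 to 21 in low glucose libraries. Of the 50-base stretches of Fdps and of Idi1, 26.2% and 25.3% recur exactly in transcripts of other annotated genes, so the levels of both are uncertain. With all libraries, DESeq2 and limma-voom called none of the 7 mevalonate genes lower, and without adjustment none had an edgeR p under 0.05 in that direction.

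Between squalene and cholesterol, 5 of 11 genes rose and none fell, beside 13.1% higher and 11.9% lower among all genes tested. Sqle, squalene epoxidase, an oxygen-requiring and rate-limiting enzyme (ENSMUSG00000022351, chromosome 15, 59315077 to 59331192), had 202, 208, 194 and 189.7 CPM in high glucose libraries, against 139, 144, 136 and 136 CPM in low glucose libraries. The groups lay far apart, and the gene rose 1.43-fold, a log2 change of 0.52 ± 0.06 (SE), and adjusted p = 0.000251 in edgeR. The ratios within the 4 same-numbered pairs lay between 0.48 and 0.55 on the log2 scale. Fdft1, which makes squalene, and Lss, which closes it to lanosterol, stand on either side of Sqle in the pathway and had log2 fold changes of -0.04 (95% interval -0.23 to 0.16) and -0.01 (interval -0.19 to 0.16). Fdft1 overlaps Ctsb on the opposite strand and shares 26.5% of its 50-base stretches with other genes, so its value is uncertain.

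Cyp51, the lanosterol demethylase (chromosome 5, 4081145 to 4104746), had 76.7, 63.4, 60.5 and 60.2 CPM in high glucose libraries, against 41.7, 54.4, 46.2 and 46.2 CPM in low glucose libraries. All high glucose libraries were above all low glucose libraries, library 1 by the most. The increase was 1.38-fold with adjusted p = 0.00741 in edgeR. Akap9 overlaps Cyp51 on the opposite strand and averaged 137 CPM in the high glucose group and 157 CPM in the low, a log2 change of -0.20 (adjusted p = 0.508 in edgeR). With the strand setting not given, reads of the 2 genes cannot be told apart where they overlap.

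The 3 enzymes that complete the sterol nucleus, Ebp, Sc5d and Dhcr7, all rose. Ebp, the isomerase that moves the ring double bond (chromosome X, 8185329 to 8193512), had 26.4, 27.2, 22.7 and 22.5 CPM in high glucose libraries, against 15.2, 19.49, 17.2 and 15.1 CPM in low glucose libraries, with no overlap. Its 1.48-fold increase was the largest of the 29 genes, with a log2 change of 0.56 ± 0.11 (SE) and adjusted p = 0.00357 in edgeR. Sc5d, the desaturase that follows, had 35.4, 35.6, 36.1 and 34.4 CPM in high glucose libraries, against 32.8, 31.2, 30.0 and 26.7 CPM in low glucose libraries.

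The difference in Sc5d was small, 1.17-fold, and passed narrowly with adjusted p = 0.0493 in edgeR. It did not pass without any 1 of the 4 high glucose libraries or without low glucose replicate 3 or 4 (adjusted p 0.0827 to 0.132), nor with library size alone (0.186), without the filter on low counts (0.0938) or with limma-voom (0.0551). Dhcr7, the reductase that yields cholesterol on the branch through 7-dehydrocholesterol, also the precursor of vitamin D, had 23.7, 22.9, 23.7 and 23.7 CPM in high glucose libraries. Its low glucose libraries were at 17.3, 17.9, 18.7 and 16.4 CPM, all below. The increase was 1.33-fold, with a log2 change of 0.42 ± 0.07 (SE) and adjusted p = 0.00216 in edgeR.

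**Figure D2:**
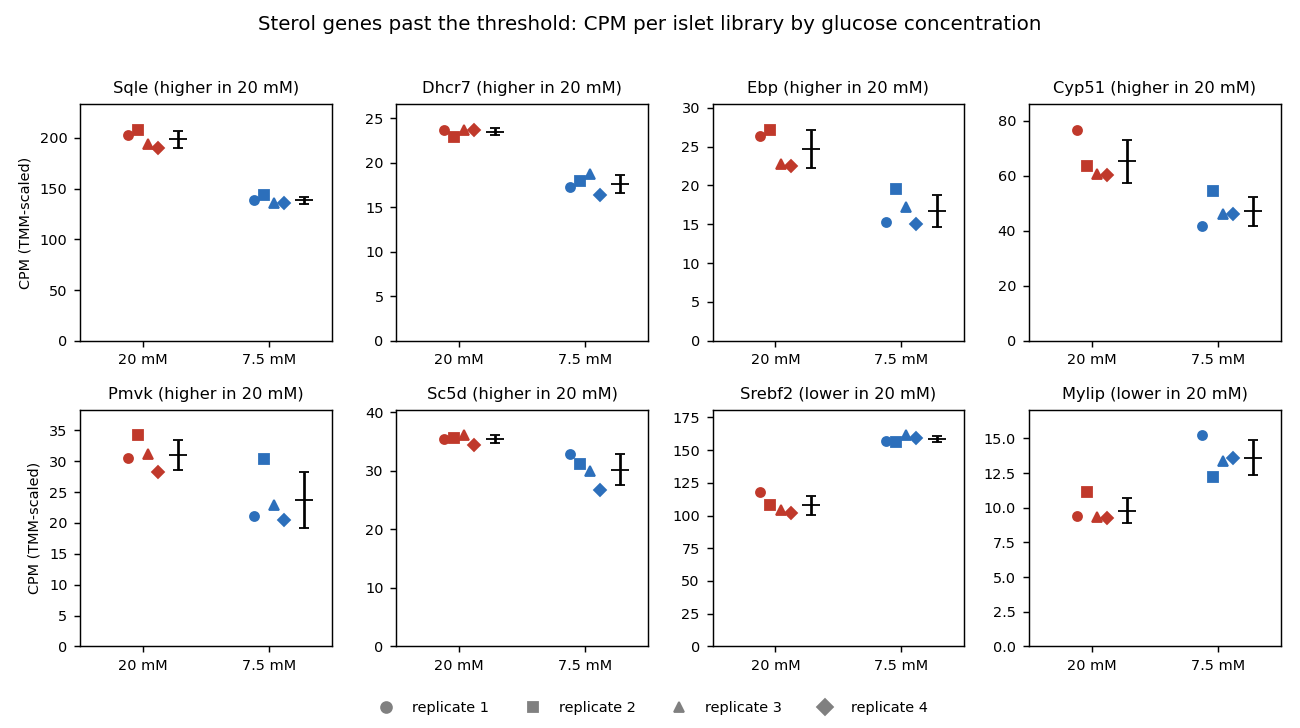
TMM-scaled CPM of the 8 genes that passed, by library, in 20 mM (red, left) and 7.5 mM glucose (blue, right), with marker shapes for the replicate numbers and black bars for mean and SD (n = 4). The groups separate for every gene but Pmvk, where low glucose library 2 at 30.4 CPM lies among the high glucose values.

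The steps between Cyp51 and Ebp did not pass. Tm7sf2, the sterol reductase that acts after Cyp51, had 15.7, 17.7, 14.0 and 13.5 CPM in high glucose libraries, against 13.0, 13.8, 12.4 and 10.6 CPM in low glucose libraries. The groups overlapped, its log2 fold change was 0.29 ± 0.12 (SE) with adjusted p = 0.108 in edgeR, and adjusted p = 0.0257 with the replicate block. It overlaps Vps51 on the same strand, so its value is uncertain. Msmo1, Nsdhl and Hsd17b7, which together remove the methyl groups at carbon 4 of the ring, had log2 fold changes of -0.08, -0.11 and -0.04, with adjusted p of 0.568, 0.582 and 0.854 in edgeR. Their 95% intervals reached upper bounds of 0.13, 0.18 and 0.24 on the log2 scale. None of the 11 was called lower by DESeq2 or limma-voom either, or had an edgeR p under 0.05 before adjustment in that direction.

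The 7 genes of sterol transport, efflux and storage all had log2 fold changes below 0, with a median of -0.28. Over all genes tested the median was -0.01, with 7946 of 15442 below 0. In the list of 20 other tested genes of transport, storage and oxysterols, 9 were below 0 and 11 above, with a median of 0.05. In edgeR with TMM scaling, all libraries and no block, only Mylip of the 7 passed. Mylip (chromosome 13, 45389742 to 45412022), whose product IDOL marks lipoprotein receptors for degradation, had 9.38, 11.1, 9.33 and 9.30 CPM in high glucose libraries. Its low glucose libraries were at 15.2, 12.2, 13.4 and 13.6 CPM, all above. Its log2 change of -0.48 ± 0.11 (SE) passed, with adjusted p = 0.00962 in edgeR.

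Abca1, the efflux pump that loads cholesterol onto apolipoprotein A-I (chromosome 4, 53030787 to 53159895), had 213, 165, 229 and 196 CPM in high glucose libraries, against 279.9, 174, 298 and 264 CPM in low glucose libraries. Both libraries numbered 2 stood lowest in their group, and low glucose library 2 lay among the high glucose values. The log2 fold change was -0.34 ± 0.16 (SE) with adjusted p = 0.153 in edgeR, and the ratio was below 1 in 4 of 4 same-numbered pairs. With the replicate block the adjusted p was 0.00219, and without low glucose replicate 2 the log2 fold change was -0.48 with adjusted p = 0.00582. Abcg1, which exports cholesterol to lipoprotein particles, had a log2 change of -0.10 (95% interval -0.29 to 0.09) and adjusted p = 0.43.

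Npc2, the soluble lysosomal protein that hands cholesterol to NPC1, had 143, 186, 153 and 143 CPM in high glucose libraries, against 162, 241, 179 and 175 CPM in low glucose libraries. Both libraries numbered 2 stood highest, the groups overlapped, and the ratio was below 1 in 4 of 4 pairs. Its log2 fold change was -0.28 ± 0.13 (SE) with adjusted p = 0.162 in edgeR, and passed under a replicate block (0.00227), under library size alone (0.0335) and without both libraries numbered 2 (0.0173). Npc1, the lysosomal membrane protein itself, had a log2 change of -0.01 (95% interval -0.22 to 0.20). It overlaps Rmc1 on the opposite strand, so its value is uncertain.

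Stard4, a cytosolic sterol carrier and known SREBP2 target, had 28.5, 23.5, 20.6 and 19.8 CPM in high glucose libraries, against 27.4, 31.2, 27.2 and 26.3 CPM in low glucose libraries. High glucose library 1 stood with the low glucose libraries, and the other 3 lay below them. It did not pass in edgeR (adjusted p = 0.113). It did pass under the replicate block (0.0271), under library size alone (0.0416) and when high glucose replicate 1 was left out (0.0183). Soat1, which esterifies cholesterol for storage, had a log2 change of -0.10 (95% interval -0.25 to 0.05). No tool of edgeR, DESeq2 and limma-voom called any of these 7 genes higher, and before adjustment no edgeR p in that direction was under 0.05. In bulk libraries, fewer cells of a type and less RNA per cell cannot be told apart.

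**Figure D3:**
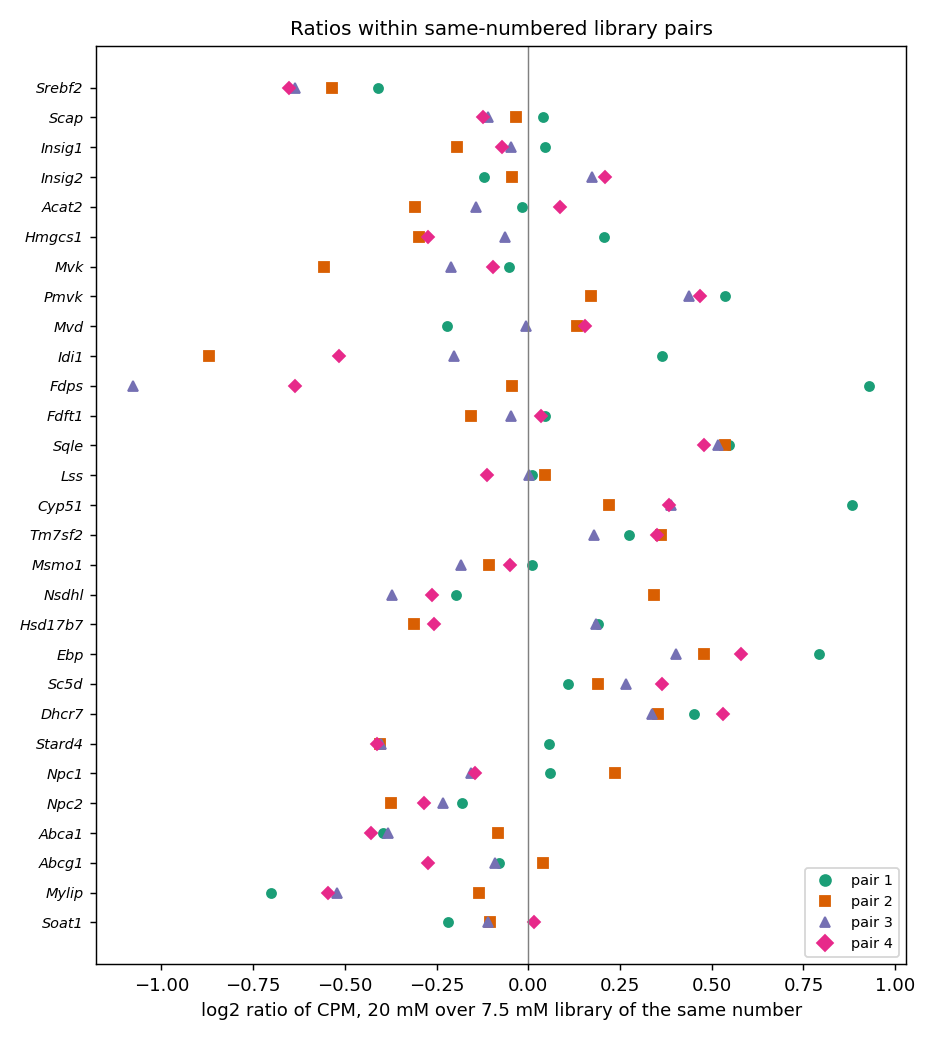
Log2 ratio of TMM-scaled CPM, high over low glucose library of the same number (horizontal axis), for the 29 genes in pathway order, with 1 marker per pair. The 4 pairs lie close together for Sqle (0.48 to 0.55), and all 4 lie below 0 for Srebf2, Mylip, Abca1, Npc2 and Mvk.

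Macrophages, which express Abca1, Abcg1, Npc2 and Soat1 strongly as a rule, were present as a minor signal. Their 10 marker genes summed to between 0.0232% and 0.0341% of a library's counts in the high glucose group and between 0.0281% and 0.0413% in the low glucose group, and none of the 10 was at 0 in all libraries or passed in edgeR. At an unadjusted edgeR p under 0.05, 1 of the 10 was higher and none lower. DESeq2 called 1 higher, limma-voom called none, and 1 was higher and 2 lower with the block. Their part in the lower values of the efflux genes was not tested. Fibroblast and stellate markers stood highest in high glucose library 1, the library in which Cyp51, Idi1, Stard4 and Srebf2, among others, were also at the top of their group, and took 0.0153% to 0.112% of counts in high glucose against 0.0127% to 0.0302% in low glucose. None of those 8 markers passed in edgeR, DESeq2 or limma-voom, and 1 was higher at an unadjusted edgeR p under 0.05. Their part in those values was not tested.

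Compared per listed gene length, the 29 genes spanned a wide range of levels. That length need not be that of the transcripts present in islets, so levels and ranks between genes are approximate. On the scale of the authors' FPKM, Sqle was highest in high glucose at 35.4 ± 1.32 (mean ± SD) and was at 24.4 ± 0.567 in low glucose. Npc2 had 28.4 ± 3.59 FPKM in high glucose and, as the highest of the 29 there, 34.0 ± 6.24 FPKM in low glucose. Insig1 came next after Npc2 in both orders, at 25.6 ± 2.07 FPKM in the high and 26.4 ± 1.63 FPKM in the low glucose group, and in high glucose the 2 genes lay within their spread of each other. Abca1 was at 19.2 ± 2.71 FPKM in the high and 23.9 ± 5.18 FPKM in the low glucose group, where it differed from Sqle by less than its spread.

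By rank of mean FPKM among the 29 genes, Sqle was 1 in high glucose against 3 in low glucose, and Srebf2 was 8 in high glucose against 5 in low glucose. Dhcr7 was 17 in high glucose against 25 in low glucose, with 4.00 ± 0.0845 against 2.95 ± 0.15 FPKM, and Mylip 25 in high glucose against 17 in low glucose. Genes from Stard4 down to Npc1 in the low glucose order lay close together, between 4.89 and 3.19 FPKM, most within the spread of their neighbours. Fdps was lowest in both groups, at 0.181 ± 0.0883 FPKM in high and 0.191 ± 0.0299 FPKM in low glucose, with the reservation on copies given above.

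**Figure D4:**
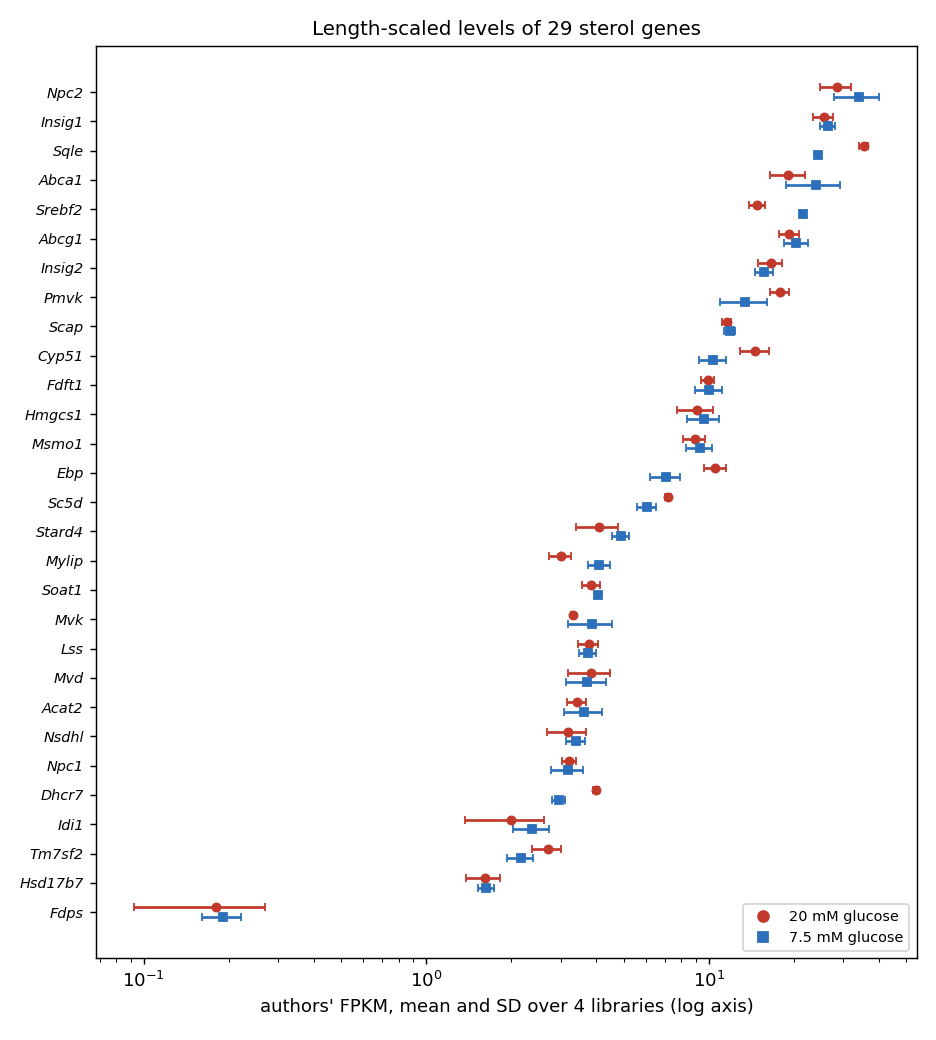
The authors' FPKM (log axis) of the 29 genes, ordered by their low glucose mean, as mean and SD over 4 libraries in 20 mM (red circles, upper) and 7.5 mM glucose (blue squares, lower). Sqle stands clear of its low glucose value of 24.4 at 35.4 FPKM in high glucose, while Insig1, Insig2, Scap, Fdft1, Hmgcs1 and Msmo1 nearly coincide.

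Further genes of sterol and isoprenoid metabolism, outside the 29, were taken from 3 lists with 48 genes, of which 46 could be tested. Here 7 rose and 2 fell, beside 13.1% higher and 11.9% lower among all genes tested, so the count that rose is near the share of the whole transcriptome. With the replicate block 14 rose and 8 fell, beside 18.9% and 18.5% of all genes, and the median log2 fold change without the block was 0.03. Among 14 genes of sterol sensing and nuclear receptors, Nr1h3, which encodes LXRα, rose 1.55-fold, averaging 11.9 ± 0.627 CPM in the high and 7.67 ± 1.09 CPM in the low glucose group (adjusted p = 0.00374 in edgeR). Erlin2, an ER membrane protein of ER-associated degradation, fell 1.41-fold, averaging 75.6 ± 3.57 CPM in the high and 106 ± 2.38 CPM in the low glucose group (adjusted p = 0.000298). Srebf1, the SREBP1 gene, had a log2 change of -0.14 (adjusted p = 0.235 in edgeR). Mbtps1 and Mbtps2, of the same list, changed by -0.21 and 0.04 on the log2 scale and did not pass (adjusted p = 0.0849 and 0.749 in edgeR). For Mbtps1 every high glucose library lay below every low glucose library, as for 13.6% of all genes tested.

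Among 12 genes of the isoprenoid branches, Dhdds, a subunit of the enzyme that makes dolichol, the lipid carrier of N-glycans, rose 1.43-fold. Its mean was 121 ± 5.22 CPM in the high and 84.2 ± 3.16 CPM in the low glucose group (adjusted p = 0.000257 in edgeR). Rabggtb, of the enzyme that prenylates RAB proteins, and Pcyox1, which breaks down prenylcysteine, rose 1.24-fold and 1.17-fold, but each did not pass under 8 of the 15 alternatives (adjusted p up to 0.124 and 0.234). None of the 12 was called lower by edgeR, DESeq2 or limma-voom, and 1 was lower at an unadjusted edgeR p under 0.05. Of 20 tested genes of transport, storage and oxysterols, Gramd1b, an ER protein that takes up plasma membrane cholesterol, rose by 0.59 on the log2 scale (adjusted p = 0.00279), and Osbp, the oxysterol-binding protein that carries cholesterol from ER to Golgi, rose 1.26-fold (0.00517). Cyp7b1, an oxysterol hydroxylase, rose 1.49-fold, but did not pass in 5 of the 15 alternatives, namely under library size alone and when high glucose replicate 1, or low glucose replicate 1, 3 or 4, was left out (adjusted p 0.0535 to 0.0963). Stard5, a cytosolic sterol-binding protein, fell 1.41-fold, averaging 21.0 ± 1.75 CPM in the high and 29.6 ± 1.82 CPM in the low glucose group (adjusted p = 0.00169).

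The high glucose libraries held 20516328 to 24905499 counts each and the low glucose libraries 19543045 to 24949515, so that 3 counts are worth 0.114 to 0.161 CPM. The 8 β-cell markers, all tested, took 20.4% to 25.4% of counts in high and 19.4% to 25.4% in low glucose, with 1 higher and 3 lower. Acinar markers took 0.303% to 1.67% against 0.123% to 1.01%, with 1 of 10 tested higher and 7 with the replicate block. The 1 was Bhlha15, at 99.2 to 111 CPM in high and 48.6 to 57.3 CPM in low glucose. The enzyme gene Cpa1 did not pass and spanned 250 to 1509 CPM in high and 78.8 to 849 CPM in low glucose. Duct markers took 0.0527% to 0.0551% against 0.0419% to 0.0547%, with 1 of 5 higher and 2 with the block. The 1 was Spp1, which with Krt7 had the highest means of the 5. Krt19 did not pass and spanned 19.3 to 65.3 CPM in high and 14.2 to 44.7 CPM in low glucose. Alpha cell markers took 1.21% to 2.36% in high and 1.5% to 2.8% in low glucose, with 1 of 4 higher. Delta cell markers took 0.241% to 0.391% against 0.166% to 0.294%, PP cell markers 0.278% to 0.397% against 0.315% to 0.559% and endothelial markers 0.00252% to 0.00318% against 0.00285% to 0.00352%. In those last 3 lists no gene was called by edgeR or DESeq2, limma-voom and the replicate block each called 1 delta cell gene higher, and at an unadjusted edgeR p under 0.05 there were 1 delta and 1 endothelial gene higher.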

How the data were processed

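RNA of islets was sequenced in 8 libraries, 4 per glucose concentration. Per the submitters' processing notes, STAR 2.5, HTSeq 2 and DESeq2 were used with the mouse build mm10 (GRCm38). The sources used here do not state the strand setting, annotation release or handling of reads with several matches. The deposited table holds the authors' raw read count per gene and library, a normalized signal (that count over a library-wide size factor), the authors' FPKM (count over listed gene length and a library total), and the authors' own log2 fold change and p-value columns, which were not used for any value given. The deposited table also lists a gene length in bases, which is not an expression value or score and entered no test.

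Counts were tested with edgeR 4.0.16 (R 4.3.3): TMM scaling, filterByExpr (minimum count 10, total 15), a quasi-likelihood fit with the group as its only term over 8 libraries, and Benjamini-Hochberg adjustment over 15442 genes. Standard errors are the absolute log2 fold change over the square root of F, and intervals cover 95%. Alternatives were RLE size factors, library size alone, no filter, DESeq2 1.42.0, limma-voom (limma 3.58.1), a replicate block and each library left out. The 29 genes, the other lists and the naming rule (full values for genes that passed and for Srebf2, Insig1, Hmgcs1, Sqle and Abca1, the rest in brief) were chosen with earlier results of these data known. Values per library for Mvk, Idi1, Tm7sf2, Npc2 and Stard4, and the genes Srebf1, Mbtps1 and Mbtps2, were added after their values had been seen.

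Deviations of same-numbered libraries of both groups correlated at 0.101, 0.449, 0.404 and 0.475 over genes, for numbers 1 to 4. The numbers were used to pair libraries for the ratios within pairs and for the replicate block only. They did not enter the main fit, so the main calls take no account of any pairing. Differently numbered pairs ranged from -0.367 to 0.207, so the value for number 1 does not stand out. The labels do not say what a number stands for. The chi-square per gene between libraries was never under 12.9, so none was a copy. The scripts were tested on simulated data, in which far fewer genes were changed than were called here. There edgeR recovered 3 of 50 genes changed 1.25-fold, 20 of 50 changed 1.5-fold and 39 of 49 changed 2-fold. Not passing therefore does not show that a gene was unchanged. Exact 50-base matches were searched in GENCODE M21 transcripts. Depth gives floors and intervals for counting error only.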

Additional observations from a re-analysis of the deposited data

Results flagged for a closer look

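In 4 of 58 groups of 4 libraries, 1 library stood apart from the other 3 by more than Dixon's 95% limit, which chance gives in about 1 of 20 groups, and each time it was a library numbered 2. Mylip was at 11.1 CPM in high glucose library 2, above the other 3 high glucose libraries at 9.30 to 9.38 CPM. Dhcr7 was at 22.9 CPM in high glucose library 2, just below the others at 23.7 CPM. Idi1 was at 10.4 CPM in low glucose library 2, above the others at 7.76 to 8.0 CPM. Fdft1 was at 50.8 CPM in low glucose library 2, above the others at 40.3 to 41.5 CPM.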

How the results depend on the processing

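Of 435 values of the 29 genes under 15 alternatives, 408 kept their call, 16 lost it and 11 gained it. Srebf2, Sqle, Cyp51, Ebp, Dhcr7 and Mylip passed in each of the 15, and 16 genes passed in none. The count of genes that rose was 6, and 4 to 6 with 1 library left out. The count that fell was 2, and 4 with library size alone, 5 with the replicate block, 4 without both libraries numbered 2 (chosen after seeing the data) and 2 to 4 with 1 library left out, the 4 being without high glucose replicate 1. Of the genes outside the 29, 7 rose and 2 fell, with 4 and 7 under library size alone and 14 and 8 with the replicate block. There 5 fell without both libraries numbered 2, and with 1 library left out 4 to 9 rose (4 without low glucose replicate 3 or 4) and 2 to 3 fell. The count of all genes called was 3854, 5779 with the block and 3015 to 5132 with 1 library left out. The cause of these shifts was not tested. The block rests on a number whose meaning the labels do not give; besides Tm7sf2, Abca1, Npc2 and Stard4, given above, it changed no other call among the 29. Fdps had the fewest reads of the 29, at 10 to 27 a library, with the reservation on copies given above.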
